A study of Mus musculus with 48 samples.

Results

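Bcl2, Bcl2l1, Mcl1, Bak1, Bid, Bad, Bcl2l11, Ripk3, Mlkl and Gsdmd were taken by gene symbol from an expression table of the mouse lung, as 10 of its 47561 genes. All 10 were found, and all 10 passed the filter on low values in every comparison. The first 7 are genes of the BCL2 family, Ripk3 and Mlkl are effectors of necroptosis, and Gsdmd is the effector of pyroptosis.

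RNA from whole lung was sequenced in 48 adult mice, 24 of strain C3H/HeN (C3H) and 24 of strain C57Bl/6 (C57B), with equal numbers of males (C3HM, C57BM) and females (C3HF, C57BF). An intraperitoneal injection was given once: 24 mice received saline (SAL) and 24 mice received aurothioglucose at 25 mg/kg (ATG), a gold drug known to block thioredoxin reductase. They then stayed in room air (RA) or breathed at least 95% oxygen (hyperoxia, HYP) for 96 h, which gave 16 groups of 3 mice. Each sample was 1 mouse. The lung is a mixture of many cell types, so that fewer cells of a type and less RNA per cell cannot be told apart.

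Proteins of the BCL2 family decide whether the outer membrane of the mitochondrion is opened. BCL2, BCL-XL (the main product of Bcl2l1) and MCL1 keep it closed, BAK1 and BAX form the pores, and the BH3-only proteins BID, BAD and BIM (Bcl2l11) act upstream of both. RIPK3 phosphorylates MLKL, which then breaches the plasma membrane in necroptosis, and cleaved gasdermin D forms the pores of pyroptosis. High oxygen injures the endothelium and the epithelium of the lung, and both apoptotic and necrotic cell death are known in that injury.

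Levels are given as FPKM, fragments scaled to exon length and to the mapped fragments of each library, which are per length and can be set side by side between genes. The number of reads per mouse is not given in the sources used here. Fold changes are differences of log2(FPKM + 1), with a standard error (SE), and a gene was called at a Benjamini-Hochberg adjusted p below 0.05 in limma over all genes tested.

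The labels and the values agree at the level of whole libraries: the nearest mouse by correlation had the same strain in 48 of 48 mice and the same air in 48 of 48 mice. Mouse C3HM 2, in saline and room air, had a mean correlation of 0.943 with its group, the lowest of the 48 mice, where the median was 0.968. The other mice of its group also stood at extremes. C3HM 1 had a mean correlation of 0.945 and the highest Scgb1a1 share, 30.2%. C3HM 3 had the highest globin share, 10.4% (median of room-air mice 1.93%), and the fewest genes above 0, 17882. The hyperoxia results were recomputed without C3HM 2, and 8 of the 10 genes were called with it and 8 without it. Over all genes tested, leaving it out moved the number called from 1832 to 4021 for the strain difference, from 1880 to 3242 for the strain difference of the response and from 6 to 1270 for the sex difference of the response. The number also rose for the sex difference, for ATG in room air and for ATG by air, as given at the end. Transcripts of club cells differed in share between the 2 kinds of air: Scgb1a1 alone held 10.4% to 30.2% of the summed FPKM in the 24 mice in room air and 1.20% to 7.17% in the 24 mice in hyperoxia. Since FPKM are shares, this moves all other genes, and its part in the results was not tested beyond the other scalings given at the end.

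The genes lay on different chromosomes in the mm10 annotation (GENCODE M21), apart from Bcl2l1 (chr2:152780668-152831728, minus strand) and Bcl2l11 (chr2:128126038-128162547, plus strand), both on chromosome 2. Bcl2 (chr1:106538178-106714274) and Mlkl (chr8:111311797-111338177) lay on the minus strand, as did Bak1 (chr17:27019810-27029009), Bid (chr6:120891930-120916853) and Ripk3 (chr14:55784995-55788865). Mcl1 (chr3:95658788-95663176), Bad (chr19:6941861-6951899) and Gsdmd (chr15:75862327-75867408) lay on the plus strand. RefSeq start sites with sequence were at hand for 9 of the 10 members, all but Gsdmd, in 13 windows of 250 bases before the start. Windows are shown for the members with the largest increases in hyperoxia among the anti-apoptotic and the necroptosis genes (Bcl2l1, Mlkl), for the member called lower in hyperoxia in the saline mice (Bcl2), and for the member called lower in C3H in room air (Bcl2l11). They lie at chr2:152831729-152831978 (minus), chr8:111338206-111338455 (minus), chr1:106714291-106714540 (minus) and chr2:128125788-128126037 (plus) of GRCm38.p6, outside annotated exons, and capitals mark a match to GTAAACA.
Bcl2l1: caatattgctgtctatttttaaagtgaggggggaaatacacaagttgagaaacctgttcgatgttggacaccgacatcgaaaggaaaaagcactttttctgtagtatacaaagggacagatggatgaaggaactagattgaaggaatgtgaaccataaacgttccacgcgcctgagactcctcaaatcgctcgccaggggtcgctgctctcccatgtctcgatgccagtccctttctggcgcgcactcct
Mlkl: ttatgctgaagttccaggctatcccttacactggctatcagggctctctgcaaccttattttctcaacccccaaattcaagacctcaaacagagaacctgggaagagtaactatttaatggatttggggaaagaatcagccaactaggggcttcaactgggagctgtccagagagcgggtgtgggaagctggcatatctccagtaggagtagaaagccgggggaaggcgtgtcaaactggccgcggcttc
Bcl2: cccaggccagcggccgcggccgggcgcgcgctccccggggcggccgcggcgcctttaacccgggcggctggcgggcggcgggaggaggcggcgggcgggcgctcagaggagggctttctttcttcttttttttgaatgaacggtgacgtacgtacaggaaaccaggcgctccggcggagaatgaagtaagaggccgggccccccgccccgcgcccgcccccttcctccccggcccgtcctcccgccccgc
Bcl2l11: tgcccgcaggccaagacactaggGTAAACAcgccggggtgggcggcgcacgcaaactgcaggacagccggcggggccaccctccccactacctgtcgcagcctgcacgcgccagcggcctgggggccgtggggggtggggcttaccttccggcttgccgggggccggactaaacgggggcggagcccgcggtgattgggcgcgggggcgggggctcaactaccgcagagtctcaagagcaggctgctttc
The Bcl2 and Bcl2l11 windows held 74.8% and 72.0% G and C, and the Bcl2l1 and Mlkl windows 47.6% and 50.8%. On both strands, 6 motifs were searched: STAT (TTCNNNGAA), ISRE (GAAA, any 2 bases, GAAA), NF-kB (GGGA, any 2 bases, TTCC), ARE (TGACNNNGC), CRE (TGACGTCA) and FOXO (GTAAACA). None overlapped another in these windows. The Bcl2l11 window held the FOXO letters, 227 bases before the start site, and 3.17% of the 32851 promoter windows in the table did. The Bcl2l1, Mlkl and Bcl2 windows shown held none of the 6. Among the other windows, 1 of Bcl2l1 held the ARE letters, 127 bases before its start site, as 10.2% of all windows did. The share of all windows was 7.02% for STAT, 2.98% for ISRE, 1.21% for NF-kB and 1.55% for CRE.

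Hyperoxia changed most of these genes in saline-injected mice. Of the 10, 7 increased and 1 decreased in 12 mice in hyperoxia against 12 in room air, where 31.8% of the 16321 genes tested were called higher and 28.3% lower, 60.1% in all. The median log2 fold change of the 10 genes was 0.65, beside 0.01 for all genes tested. Bcl2l1 increased most, followed by Mlkl, Bid, Ripk3, Bak1, Mcl1 and Gsdmd. Bcl2 decreased, and Bad and Bcl2l11 were not called.

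**Figure D1:**
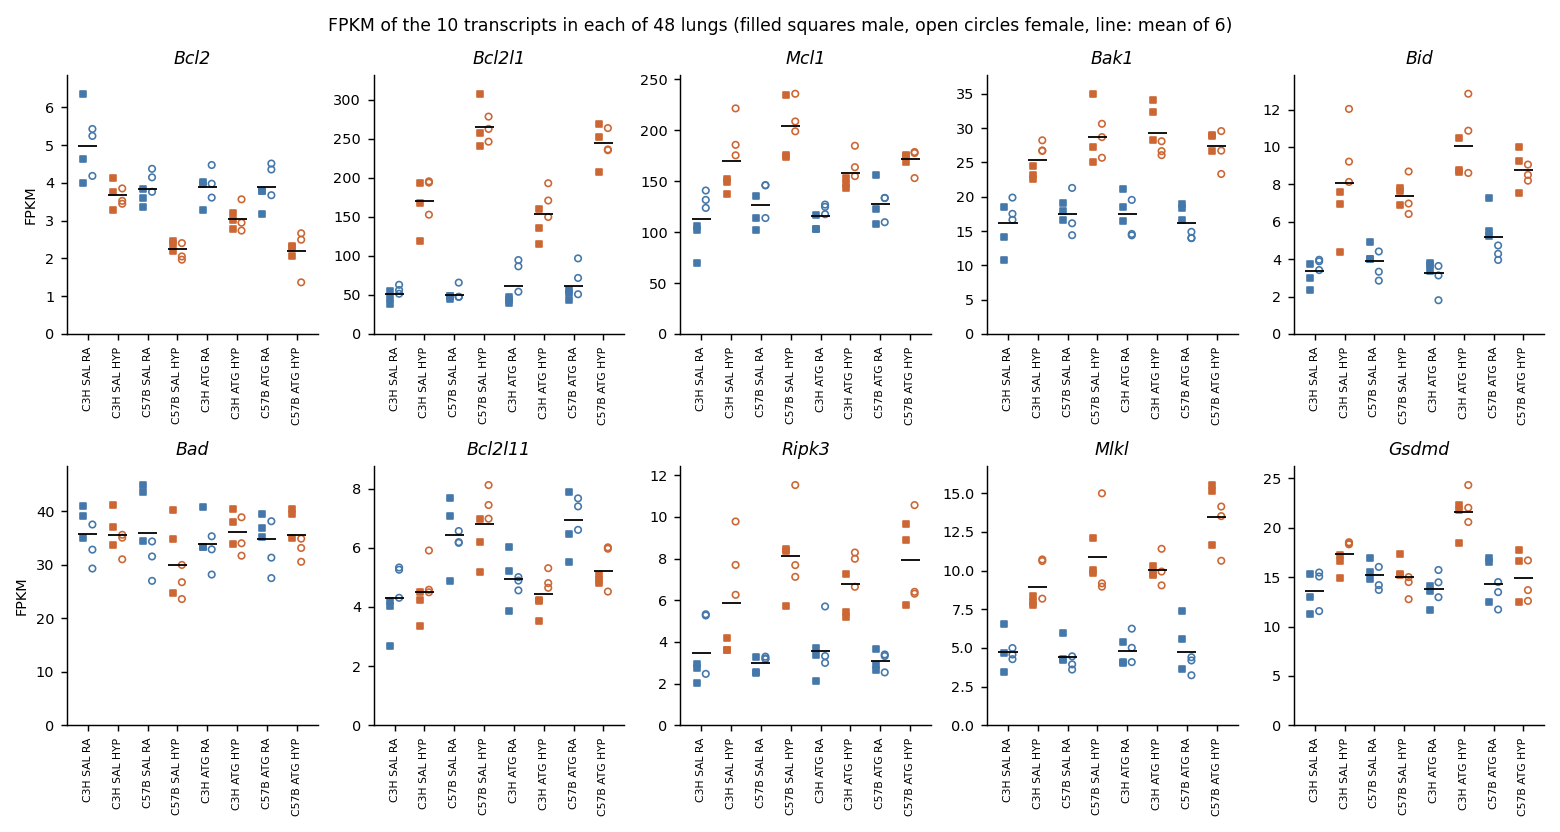
FPKM of the 10 genes in each of the 48 lungs, in 8 columns by strain, injection and air; each point is 1 mouse (filled squares male, open circles female) and each line the mean of 6. Bcl2l1, Mlkl and Bak1 show no overlap between the 12 saline mice in hyperoxia and the 12 in room air, and Bad shows wide overlap.

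Bcl2l1 encodes BCL-XL, which binds and holds BAX, BAK1 and the BH3-only proteins. In saline mice in room air, its FPKM were 38.3, 45.9 and 55.4 in C3HM, 56.3, 63.1 and 51.6 in C3HF, 48.1, 45.3 and 48.2 in C57BM, and 47.8, 47.4 and 65.9 in C57BF. In hyperoxia they were 167, 194 and 119 in C3HM, 194, 196 and 153 in C3HF, 241, 308 and 258 in C57BM, and 247, 279 and 263 in C57BF. The lowest hyperoxia lung, a C3HM, stood above the highest room-air lung, a C57BF. The mean was 51.1 ± 7.82 FPKM in room air and 218 ± 56.4 in hyperoxia (SD, n = 12 each), a log2 fold change of 2.04 (SE 0.0864, limma adjusted p = 3.43e-13), which is 4.11-fold on the FPKM + 1 scale. On the same scale it was 3.24-fold in C3H and 5.21-fold in C57B.

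Mcl1, whose short-lived protein guards mitochondria in many cell types, was the most abundant of the 10 in room air. In saline mice in room air its FPKM ran from 70.1 to 146 with a median of 119, and in hyperoxia from 137 to 236 with a median of 181. The ranges overlapped, yet the increase was called (log2 fold change 0.65, SE 0.0804, limma adjusted p = 7.89e-07). Bcl2, the founding member of the family, was the least abundant of the 3 anti-apoptotic genes. It fell from a range of 3.37 to 6.36 FPKM (median 4.17) to a range of 1.97 to 4.13 (median 2.87), with a log2 fold change of -0.46 (SE 0.0738, limma adjusted p = 2.02e-05).

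The shares of these 3 anti-apoptotic transcripts moved. Of their summed FPKM, Bcl2l1 held a median of 29.4% (24.0% to 33.4%) in the 12 saline mice in room air and 52.3% (40.4% to 63.3%) in hyperoxia, with no overlap. Mcl1 held 68.2% and 47.0%, and Bcl2 2.32% and 0.725%. Bcl2l1 stood above Mcl1 in 0 of 12 mice in room air and in 10 of 12 in hyperoxia. In the ATG mice the same counts were 0 of 12 and 9 of 12.

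**Figure D2:**
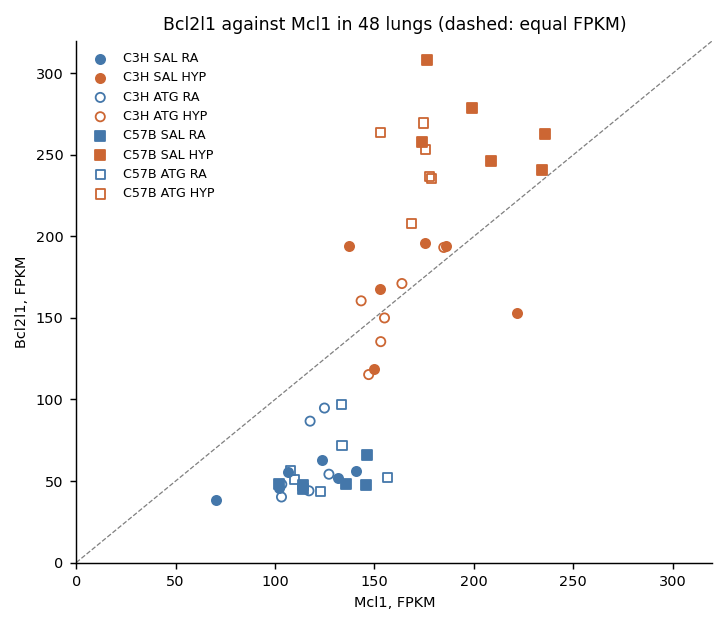
Bcl2l1 FPKM (vertical) against Mcl1 FPKM (horizontal) in the 48 mice, 1 point per mouse, with a line where both are equal. All 24 room-air mice lie below the line, and 19 of the 24 hyperoxia mice lie above it.

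Bak1, a pore former that sits in the mitochondrial membrane, ran from 10.7 to 21.3 FPKM (median 17.1) in room air and from 22.5 to 35.0 (median 26.7) in hyperoxia, without overlap, with a log2 fold change of 0.66 (SE 0.0821, limma adjusted p = 9.84e-07). Bid, which caspase-8 cleaves to link death receptors to mitochondria, ran from 2.34 to 4.92 FPKM (median 3.81) in room air and from 4.36 to 12.0 (median 7.61) in hyperoxia. A single hyperoxia lung, C3HM 9 at 4.36 FPKM, fell within the room-air range. The log2 fold change of Bid was 0.89 (SE 0.0955, limma adjusted p = 1.21e-07).

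Bad, a BH3-only protein under the control of growth-factor signalling, and Bcl2l11 did not pass the test. Bad averaged 35.9 ± 5.52 FPKM in room air and 32.8 ± 5.73 in hyperoxia (SD, n = 12 each), a log2 fold change of -0.13 (limma adjusted p = 0.163). With median ratio scaling (-0.19, limma adjusted p = 0.0255) and with quantile normalization (-0.25, limma adjusted p = 0.00630) Bad was called lower. Bcl2l11 averaged 5.36 ± 1.44 and 5.66 ± 1.49 FPKM, a log2 fold change of 0.07 (limma adjusted p = 0.509).

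The necroptosis effectors both increased. Mlkl, the executioner, ran from 3.48 to 6.53 FPKM (median 4.37) in room air and from 7.81 to 15.0 (median 9.51) in hyperoxia, so that the groups were apart (log2 fold change 0.96, SE 0.0975, limma adjusted p = 6.04e-08). Ripk3, its kinase, ran from 2.05 to 5.33 FPKM (median 3.05) and from 3.60 to 11.5 (median 7.41), with overlap. The increase of Ripk3 was 0.88 on the log2 scale (SE 0.112, limma adjusted p = 1.08e-06). In C3HM in hyperoxia, Ripk3 was 4.17, 3.62 and 3.60 FPKM, and in C3HF 6.26, 7.70 and 9.78. All 3 of those C3HM values lay within the room-air range of the 12 mice, and above the C3HM room-air range of 2.05 to 2.92 FPKM.

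Gsdmd changed least among the called genes. It ran from 11.3 to 17.0 FPKM in room air and from 12.8 to 18.5 in hyperoxia, a log2 fold change of 0.16 (SE 0.0640, limma adjusted p = 0.0381). That call was lost in 14 of 24 fits that left out 1 mouse, and with median ratio scaling (0.10) and quantile normalization (0.05).

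Without overlap between the 12 mice in each air, 3 of the 10 genes were higher (Bcl2l1, Bak1, Mlkl), beside 5.61% of all genes tested, and 0 were lower, beside 2.13%. Over all 8 pairs of hyperoxia and room-air groups matched by strain, sex and injection, the hyperoxia mean was above the room-air mean in 8 of 8 pairs for Bcl2l1, Mcl1, Bak1, Bid, Ripk3 and Mlkl, and below it in 8 of 8 for Bcl2. The share of all genes with 1 direction in 8 of 8 pairs is not given here. Of all genes tested, 60.1% were called for hyperoxia in the saline mice. The ratio of means ran from 2.18 to 5.70 for Bcl2l1, from 1.34 to 1.66 for Mcl1, from 1.51 to 1.86 for Bak1 and from 1.48 to 3.77 for Bid. It ran from 1.47 to 2.72 for Ripk3, from 1.65 to 3.24 for Mlkl and from 0.521 to 0.798 for Bcl2.

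The 24 ATG mice share no animal with the 24 saline mice, and the same comparison was run in them after the saline values had been seen. In the ATG mice 7 genes were called higher and 2 lower, where 61.8% of all genes tested were called, 35.8% higher and 26% lower. The increase was 1.69 on the log2 scale for Bcl2l1, 1.15 for Mlkl, 1.03 for Bid, 0.96 for Ripk3, 0.73 for Bak1, 0.44 for Mcl1 and 0.34 for Gsdmd. Bcl2 was lower by a log2 fold change of -0.44. Bcl2l11 was also called lower there, with -0.23 (limma adjusted p = 0.00745), where the saline mice gave 0.07. Bad was not called, at 0.06.

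The study was laid out to compare strains, and the response was set side by side in 6 mice against 6 per strain. In C3H saline mice 7 genes were called higher and 1 lower (background 25.3% and 12.5%), and 6 were higher with median ratio scaling or quantile normalization, which lost Gsdmd. In C57B saline mice 6 were called higher and 1 lower (background 25.5% and 30%). Bad was called lower there as well with quantile normalization (-0.36, limma adjusted p = 0.00616) and with all 48 mice in 16 groups (-0.26, limma adjusted p = 0.0254). Without overlap between the 2 kinds of air, 4 of the 10 were higher and 0 lower in C3H, beside 10.2% and 4.13% of all genes, and 6 were higher and 1 lower in C57B, beside 16.1% and 16.3%. Those higher were Bcl2l1, Bak1, Bid and Mlkl in both strains, with Mcl1 and Ripk3 in C57B. Bcl2l1 increased by 1.70 on the log2 scale in C3H and by 2.38 in C57B. The difference between the strains was called for Bcl2l1 alone among the 10, at -0.69 (SE 0.173, limma adjusted p = 0.0151), where 11.5% of all genes tested were called for this interaction (3242 of 16279 without C3HM 2) and the median of all genes was 0.15. Cell type markers were called for it too, with a value in C3H above that in C57B: club cell markers in 3 of 3 (median 2.06), B cell markers in 3 of 4 (1.14), T and NK cell markers in 4 of 6 (0.94) and 1 each of the monocyte, alveolar macrophage, alveolar type 2, ciliated cell and endothelial markers. With a value below that in C57B, 1 of 6 alveolar macrophage markers was called. Their part in the strain difference of the response was not tested.

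**Figure D3:**
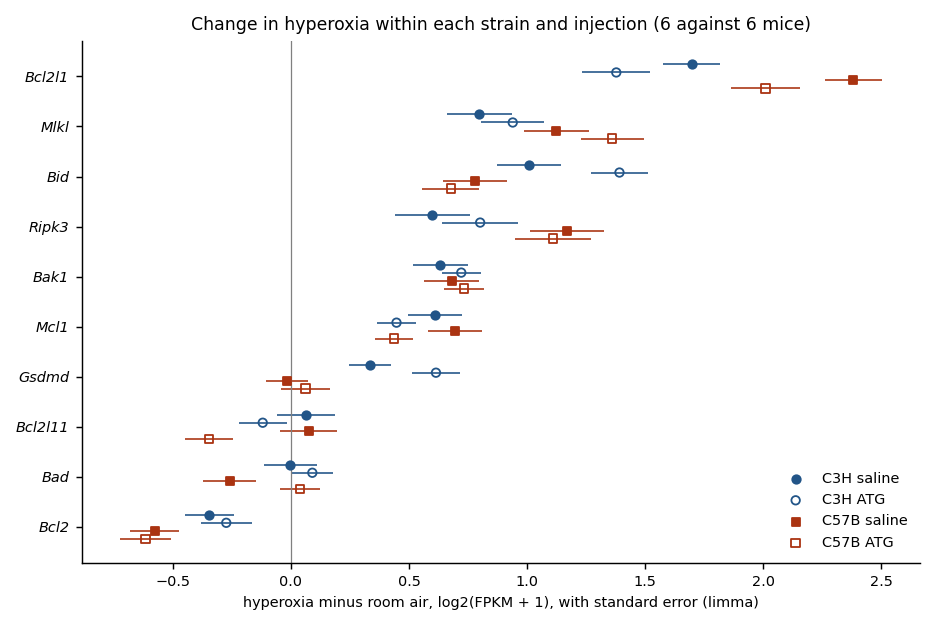
Difference of log2(FPKM + 1), hyperoxia minus room air, of the 10 genes in C3H (circles) and C57B (squares) and in saline (filled) and ATG mice (open), each from 6 mice against 6; bars are SE. In the saline mice Bcl2l1 lies at 1.70 in C3H and 2.38 in C57B, and Gsdmd at 0.33 and -0.02.

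The strains had near-equal Bcl2l1 in room air and differed in hyperoxia. In saline mice in room air the means were 51.8 ± 8.68 FPKM in C3H and 50.4 ± 7.63 in C57B, and in hyperoxia 170.5 ± 30.8 and 266 ± 24.6 (SD, n = 6 each). Every C3H lung in hyperoxia was below every C57B lung, as was so for 4.78% of all genes. The ATG mice, a separate set, gave 61.3 ± 23.4 and 61.9 ± 19.5 FPKM in room air and 154 ± 27.3 and 244 ± 22.6 in hyperoxia, again with all 6 C3H lungs below all 6 C57B lungs (5.76% of all genes). Their interaction was -0.63 (SE 0.205, limma adjusted p = 0.0458), and 3 of the 10 genes were called for it, beside 13.3% of all genes. In the saline mice it ran from -0.76 to -0.59 over 24 fits that left out 1 mouse each, all of them called.

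Bid and Gsdmd differed in the other direction in the ATG mice. Bid rose by 1.39 on the log2 scale in C3H and by 0.68 in C57B, a difference of 0.71 (SE 0.171, limma adjusted p = 0.00866). The Bid levels in room air were already apart there: the 6 C3H lungs had 1.80 to 3.79 FPKM and the 6 C57B lungs 3.96 to 7.26, an order without overlap that 4.15% of all genes shared. The lowest of these lungs, C3HF 28, is flagged at the end. The highest, C57BM 18, had 3645 FPKM of neutrophil markers. The Bid difference in the ATG mice was not refitted with 1 mouse left out. In the saline mice the Bid difference was 0.23 (limma adjusted p = 0.463). Whether the saline and the ATG differences are unequal was not tested.

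Gsdmd rose in C3H only by its own test, which does not show that the strains differ. In the saline mice it rose by 0.33 in C3H (limma adjusted p = 0.00645) and had -0.02 in C57B, and the difference of 0.35 was not called (SE 0.128, limma adjusted p = 0.0785). The C3H call was lost with median ratio scaling (log2 fold change 0.19, limma adjusted p = 0.142) and with quantile normalization (0.17, limma adjusted p = 0.179). In the ATG mice it rose by 0.61 in C3H and had 0.06 in C57B, and the difference of 0.55 was called (limma adjusted p = 0.0157). Gsdmd in the ATG mice in hyperoxia was 18.4 to 24.3 FPKM in C3H and 12.4 to 17.7 in C57B, without overlap. In the ATG mice in hyperoxia, Gsdmd and Bcl2 were the 2 of the 10 genes higher in all 6 C3H lungs, beside 6.34% of all genes.

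Ripk3 gave the opposite order of strains. It rose by 0.60 in C3H and by 1.17 in C57B in the saline mice, a difference of -0.57 that was not called (SE 0.223, limma adjusted p = 0.0991). That difference was called with median ratio scaling (-0.72) and quantile normalization (-0.82), and without C3HF 27 (-0.71). In the ATG mice the difference was -0.31 and was not called (limma adjusted p = 0.400).

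Bcl2 fell by 0.35 in C3H and by 0.58 in C57B on the log2 scale. In hyperoxia the 6 C3H lungs had 3.28 to 4.13 FPKM and the 6 C57B lungs 1.97 to 2.46, without overlap, as in 5.99% of all genes, and in the ATG mice 2.74 to 3.57 and 1.37 to 2.67, also without overlap. The strain difference in the response of Bcl2 was 0.23 and was not called (limma adjusted p = 0.317).

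Strain without hyperoxia was compared in the 12 saline mice in room air. Bcl2l11, whose product BIM binds all anti-apoptotic family members, was lower in C3H than in C57B, 4.30 ± 0.968 against 6.42 ± 0.956 FPKM (SD, n = 6 each), with a log2 fold change of -0.50 (SE 0.135, limma adjusted p = 0.0327). It was the 1 gene of the 10 called, and 11.8% of all genes tested were called (4021 of 15466 without C3HM 2), with a median log2 fold change of -0.10. The call was kept only without C3HM 1, C3HM 2 or C57BM 14 and lost in the other 9 of 12 fits that left out 1 mouse. It was also lost without a filter (limma adjusted p = 0.0552), with median ratio scaling (0.0623) and with quantile normalization (0.117). Bcl2, with 0.29 (limma adjusted p = 0.154), gained a call with quantile normalization (0.46, limma adjusted p = 0.0462) and in both fits on all 48 mice. Cell type markers moved in the same comparison: B cell markers were lower in C3H in 4 of 4 (median -1.21), neutrophil markers in 5 of 7 (-0.81), T and NK cell markers in 3 of 6 (-0.54) and alveolar type 2 markers in 3 of 5 (-0.63), and alveolar type 1 markers were higher in 3 of 4 (0.49) and erythrocyte markers in 2 of 3 (1.86). The summed B cell markers were 19.0 to 60.3 FPKM in C3H and 70.5 to 100.1 in C57B. The summed erythrocyte markers were 11924 to 66615 FPKM in C3H, the group of C3HM 3, and 2736 to 15590 in C57B, with overlap. Their part in the strain difference was not tested. The mean of Bcl2l11 was lower in C3H in each of the 4 combinations of injection and air. In saline mice in hyperoxia it was 4.51 ± 0.824 in C3H and 6.82 ± 1.02 in C57B.

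Sex was compared in the same 12 mice. Of the 10 genes, 0 were called, beside 0.669% of all genes tested, and 2 had an unadjusted p below 0.05, as had 23.3% of all genes tested. These were Mcl1, with a male against female log2 fold change of -0.37 (limma adjusted p = 0.133), and Bad, with 0.30 (limma adjusted p = 0.143). Without C3HM 2, Mcl1 was called (limma adjusted p = 0.0426). That fit called the most genes for sex among those that left out 1 mouse, so the share of 0.669% does not apply to it. The range over these fits stands at the end. The hyperoxia response differed between the sexes for 0 of the 10, beside 0.0368% of all genes tested, and 0 had an unadjusted p below 0.05. Without C3HM 2, 1270 of 16279 genes were called for it where 6 had been, and still 0 of the 10.

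ATG was compared with saline over both strains and sexes. In room air 0 were called by limma in 12 ATG against 12 saline mice, beside 0.0185% of all genes tested, and 0 had an unadjusted p below 0.05. In hyperoxia 0 were called, beside 5.47%, and 5 had an unadjusted p below 0.05, as had 21.9% of all genes tested: Mcl1 (-0.17), Bid (0.27), Bcl2l11 (-0.17), Mlkl (0.23) and Gsdmd (0.14). Bid was called without C3HF 33 (limma adjusted p = 0.0471) and Mlkl without C57BF 44 (limma adjusted p = 0.0332), and quantile normalization called 2 of the 10. The 5.47% belongs to the main fit, and the share of all genes under quantile normalization is not given here. Cell type markers moved as well: alveolar macrophage markers were lower with ATG in 4 of 6 (median -0.78), monocyte markers in 1 of 8 and endothelial markers in 1 of 5. Alveolar type 1 markers were higher in 1 of 4. The alveolar macrophage sum had a median of 401 FPKM with saline and 141 with ATG in C3H, and of 1453 and 1183 in C57B. Their part in the ATG differences was not tested. Gsdmd in hyperoxia was 17.3 ± 1.43 FPKM with saline and 21.6 ± 1.96 with ATG in C3H, and 15.0 ± 1.49 and 15.0 ± 2.33 in C57B (SD, n = 6 each). Bak1 in male C3H mice in hyperoxia was 22.5, 23.2 and 24.5 FPKM with saline and 28.3, 32.3 and 34.0 with ATG. Their means in room air were 14.4 with saline and 18.7 with ATG. In hyperoxia the other groups had slightly lower Bak1 means with ATG. With saline and ATG these were 27.2 and 26.9 in C3HF, 29.1 and 28.1 in C57BM, and 28.3 and 26.5 in C57BF. These 2 genes are given because their values were seen to differ, with no share of all genes beside them. The effect of ATG within a strain or sex was not tested. The effect of ATG differed between the 2 kinds of air for 0 of the 10, beside 2.77%, with 3 at an unadjusted p below 0.05, as had 18.8% of all genes tested (Bcl2l1, Mcl1, Bcl2l11). Alveolar macrophage markers were called lower for this difference in 3 of 6, monocyte markers in 1 of 8 and endothelial markers in 1 of 5. The shares of all genes called for ATG depend on single mice, and their ranges with 1 mouse left out stand at the end.

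Other genes of these pathways were read from 4 lists, beside 31.8% of all genes called higher and 28.3% lower. Among the other BCL2 family genes, 15 of 18 passed the filter, and 3 increased and 6 decreased in hyperoxia in saline mice (median log2 fold change 0.01), in all near the 60.1% of all genes. Bax, the second pore former and a known p53 target, increased by 1.90 (SE 0.0628, limma adjusted p = 1.36e-14). Its mean was 64.6 FPKM in room air and 241 in hyperoxia. The ratio of Bcl2l1 to Bax in the saline mice had a median of 0.779 (0.545 to 1.15) in room air and 0.734 (0.450 to 0.850) in hyperoxia in C3H, and of 0.796 (0.547 to 1.16) and 1.16 (1.01 to 1.38) in C57B. It was 0.904 (0.448 to 1.82) and 0.492 (0.390 to 0.742) in C3H ATG mice, and 0.776 (0.589 to 1.83) and 0.948 (0.669 to 1.07) in C57B ATG mice. The ratio was lower in hyperoxia by its median in C3H and higher in C57B, with overlap between the 2 kinds of air in each set of 6 and 6 mice, and it was not tested. Bcl2l13 increased by 0.95 and Bcl2a1b by 0.55, the latter one of several near-identical copies whose reads are hard to assign. Bnip3l, a mitophagy receptor, decreased by 1.29, the BH3-only gene Bmf by 0.94 and the BH3-only gene Bik by 0.65.

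Of the caspase and apoptosome list, 13 of 13 were tested, and 2 increased and 5 decreased (median -0.15), in all near the 60.1% of all genes. Htra2, a mitochondrial protease, increased by 0.33. Casp6 decreased by 0.93 and Casp2 by 0.71.

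Of the death receptor and necroptosis control list, 18 of 19 were tested, and 13 increased and 2 decreased (median 0.40). Tnfrsf10b, the mouse TRAIL receptor, increased by 1.87, Tnfaip3, which encodes the ubiquitin editor A20, by 1.29, the ubiquitin ligase Birc3 by 1.11 and the TNF receptor Tnfrsf1a by 0.84. Ripk1, the kinase upstream of RIPK3, increased by 0.76. Tlr3 decreased by 0.67 and Tradd by 0.56. Casp8, the caspase that holds necroptosis in check, had 0.01 and was not called (limma adjusted p = 0.835).

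Of the pyroptosis list, 9 of 13 were tested, and 4 increased and 1 decreased (median 0.50), in all near the 60.1% of all genes. Casp4, the mouse caspase-11 that cleaves gasdermin D, increased by 0.86, the inflammasome sensor Nlrp3 by 0.78, Ninj1, which ruptures the plasma membrane, by 0.75 and Gsdme by 0.50. Il18 decreased by 0.34.

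**Figure D4:**
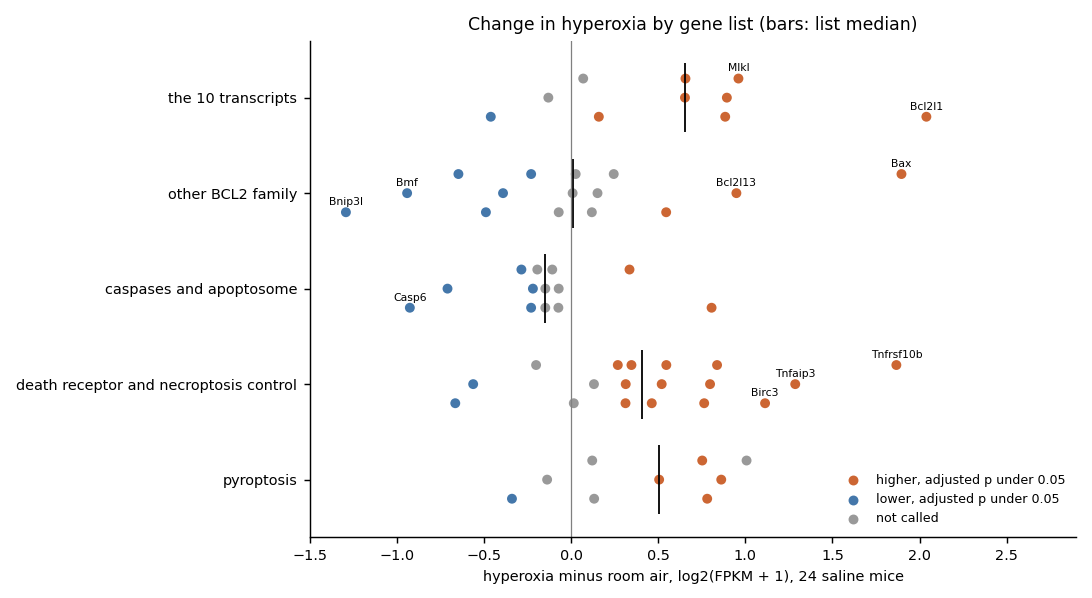
Log2 fold change (hyperoxia against room air, saline mice) of every tested gene of the 10 members and the 4 pathway lists, 1 point per gene, coloured by its call, with a bar at the median of each list. Bcl2l1 (2.04), Bax (1.90) and Tnfrsf10b (1.87) lie farthest to the right and Bnip3l (-1.29) farthest to the left.

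Markers of cell types moved with hyperoxia as well. In the saline mice 7 of 7 tested neutrophil markers increased, with Mpo not tested, and S100a9 was the most abundant. Their summed FPKM had a median of 190 (135 to 314) in C3H and 463 (181 to 778) in C57B in room air, and of 208 (181 to 6342) and 3099 (165 to 4926) in hyperoxia. Markers of B cells decreased in 4 of 4, of T and NK cells in 6 of 6, of club cells in 3 of 3 and of cardiac muscle in 4 of 4. Of the alveolar type 2 markers 4 decreased and 1 increased, and of the alveolar macrophage markers 4 increased and 2 decreased. Of the 8 markers of monocytes and recruited macrophages 4 increased and 2 decreased, and their summed FPKM had a median of 247 in room air and 466 in hyperoxia in C3H and of 150.4 and 359 in C57B. Erythrocyte markers decreased in 3 of 3 (median log2 fold change -4.14), ciliated cell markers in 2 of 3 and alveolar type 1 markers in 2 of 4. Of 5 endothelial markers 1 increased and 2 decreased, and of 4 fibroblast markers 1 increased.

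The lungs at the extremes of the neutrophil sum are given with their levels. The saline hyperoxia lung with the lowest sum, C57BM 21, had 165 FPKM, below the median of 276 for saline room-air lungs, and had 258 FPKM of Bcl2l1, 12.1 of Mlkl, 7.63 of Bid, 5.71 of Ripk3 and 27.2 of Bak1. Each of these stood above all 12 saline room-air lungs. The saline hyperoxia lung with the highest sum, C3HF 33 at 6342 FPKM, had 153 FPKM of Bcl2l1 and 8.19 of Mlkl. It also had 222 of Mcl1, 9.78 of Ripk3 and the highest Bid of the saline mice, 12.0. In saline room air, C57BM 15 had the highest sum, 778 FPKM, and the highest Bid of the 12 lungs, 4.92. In ATG hyperoxia, C3HF 34 had the highest sum, 2926 FPKM, and the highest Bid of the 12 lungs, 12.8. Among the ATG mice in room air, C57BM 18 had 3645 FPKM of neutrophil markers, with 51.9 FPKM of Bcl2l1 and 3.62 of Mlkl, and with 157 of Mcl1 and 7.26 of Bid, the highest of the 24 room-air lungs for both. The part of neutrophils and of the other cell types in these results was not tested.

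**Figure D5:**
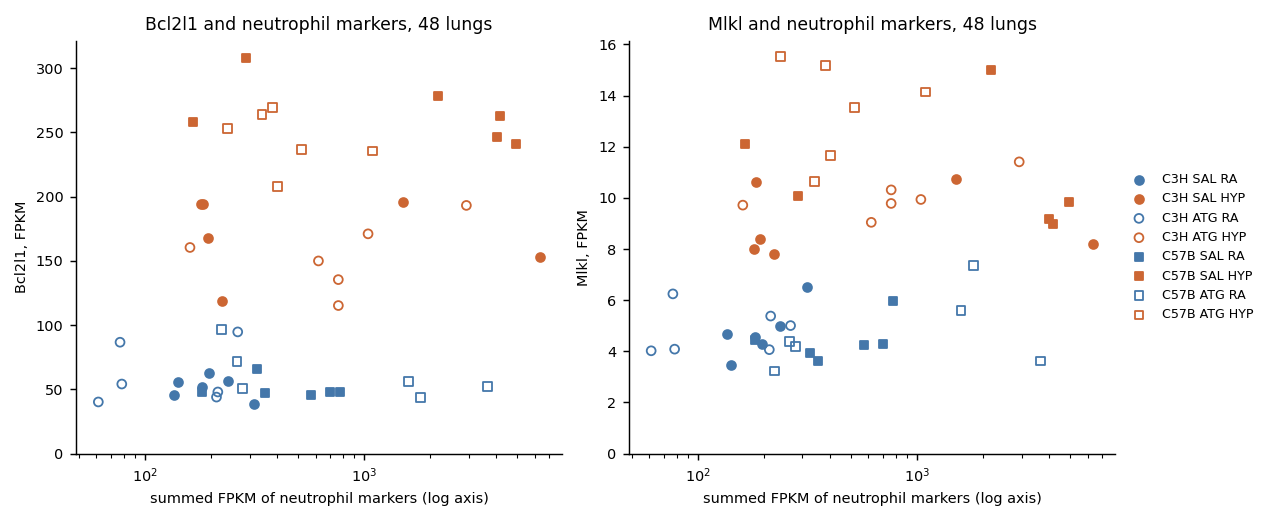
Bcl2l1 (left) and Mlkl (right) FPKM against the summed FPKM of 8 neutrophil markers (log axis), 1 point per mouse for the 48 mice. Saline hyperoxia lungs range from 165 to 6342 FPKM of neutrophil markers and from 119 to 308 FPKM of Bcl2l1. A relation between the axes was not tested.

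The genes most like each member were found over the 16 group means, each scaled to its own mean and SD, by the mean absolute difference to 16994 genes. For Bcl2l1 they were Ipo5, an importin (0.137), and F3, tissue factor (0.140), where the median over all genes was 1.10. For Mcl1 they were Taf5l (0.186) and the transcription factor gene Stat3 (0.192), for Mlkl Cox5a and Cstb, for Bak1 Ltv1 and Litaf, and for Bid Ccl8 and Arpc1b. The nearest other member of Bcl2l1 was Ripk3 (0.253), of Bak1 Mlkl (0.296) and of Mcl1 Ripk3 (0.348). Bcl2, Bad and Bcl2l11 had no near member, at 1.02, 1.00 and 0.974.

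Some of these genes share sequence with a neighbour on the opposite strand. Exons of Bid overlap those of Bcl2l13 over 628 bases, 17.7% of the exonic bases of Bid, and both genes increased. Exons of Bad overlap those of Gpr137 over 20.5%, those of Bak1 overlap Ggnbp1 over up to 18.2%, and those of Bcl2 overlap an antisense gene over 6.09%. The labels name a directional library preparation and the methods of the study a different kit, and neither says whether reads were assigned by strand, so the levels of these 4 genes are uncertain to that extent. Bcl2l1, Mcl1, Ripk3, Mlkl and Gsdmd shared at most 0.557% of their 30-base stretches with other genes. FPKM per gene do not separate isoforms, such as the long and short forms of Bcl2l1 and Mcl1.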

How the data were processed

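Whole-lung RNA of 48 mice was used. Per the labels and the methods of the study, reads were aligned with GSNAP to mm10 and SAMtools and Cufflinks were used. The deposited values are FPKM per gene, made by the authors, 1 column per mouse. Read totals are unknown, and no interval for counting error was given. Akap5, with failed estimates in 7 mice, was left out. Genes reaching an FPKM of 1 in 3 or more mice of a comparison were tested as log2(FPKM + 1) in limma 3.58.1 (R 4.3.3), on group means with a mean-variance trend and Benjamini-Hochberg adjustment over all genes. Strain and sex were tested in the 12 saline mice in room air, hyperoxia in the 24 saline mice, ATG within each kind of air and its interaction in 48 mice. The code was tested on simulated data. The 10 members and all lists were chosen with earlier results of these data known. By rule at most the 4 called genes with the largest changes were named in each list. Bcl2a1b, Bik, Tlr3, Tradd, Ripk1, Casp8 and, for hyperoxia, Il18 fall outside it and were chosen after their values were seen. Some named results are not reported here. The submitted design text gives ATG to all mice and names the strain C57B6/J, and the methods of the study name C57Bl/6N, whereas the labels give saline to 24 mice and C57Bl/6. The labels were followed.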

Additional observations from a re-analysis of the deposited data

Results flagged for a closer look

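For the 10 genes in the 8 groups of 6 mice of 1 strain, injection and air, 3 of 80 sets of values held a mouse set apart from the other 5 by Dixon's criterion, where chance gives about 1 in 20 sets. For Bcl2l1 it was C57BF 39 among the C57B saline mice in room air (65.9 FPKM against 45.3 to 48.2, gap to range 0.86). For Bid it was C3HF 28 among the C3H ATG mice in room air (1.80 FPKM against 3.13 to 3.79, 0.666). For Mlkl it was C57BM 15 among the C57B saline mice in room air (5.98 FPKM against 3.60 to 4.46, 0.64).

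The response to hyperoxia differed between the strains in the saline mice, by the interaction term of limma, for Bcl2l1 (-0.69, C3H minus C57B, log2 scale), Pgam5 (-0.49), Bcl2l12 (0.94), Bnip3l (0.52), Parp1 (0.74) and Il18 (0.76). These are 1 of 10 members, 2 of 15 other BCL2 family genes, 1 of 13 on the caspase list, 1 of 18 on the death receptor list and 1 of 9 on the pyroptosis list. Of all genes tested 11.5% were called. In the ATG mice it differed for Bcl2l1 (-0.63), Bid (0.71) and Gsdmd (0.55). The effect of ATG differed between hyperoxia and room air for Bcl2l12 (0.64), Apaf1 (0.77), Diablo (0.28), Traf2 (0.39) and Il18 (-1.04). These are 0 of 10 members, 1 of 16 other BCL2 family genes, 2 of 13 on the caspase list, 1 of 19 on the death receptor list and 1 of 9 on the pyroptosis list. Of all genes tested 2.77% were called.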

How the results depend on the processing

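The 10 members gave 750 values under the alternatives other than leaving out 1 mouse, of which 723 kept their side of the threshold, 16 gained a call, 7 lost it and 4 changed sign with a call. A further 29, called in neither fit, also changed sign. The 4 were the strain difference averaged over 8 pairs of groups (Bcl2l1 -0.34, Gsdmd 0.13) and Bcl2l11 in the 24 ATG mice (-0.23 for hyperoxia, -0.35 in C57B), an alternative added after seeing the data. Genes called for strain numbered 2982 of 16994 with all 48 mice in 16 groups and 7066 of 16994 averaged over the 8 pairs, and members called 2 and 5 of 10. Members called for strain were 0 without a filter and with median ratio scaling. For sex, 60 genes were called with a filter at FPKM 0.1, 40 without one and 1915 of 16994 with 48 mice, which called 2 members. For hyperoxia by strain, 2994 genes were called with 48 mice, and 2 members with median ratio scaling or quantile normalization and 3 in the ATG mice. For hyperoxia by sex, 2 genes were called with median ratio scaling, 306 with 48 mice and 32 in the ATG mice. ATG in room air called 5 genes and ATG by air 313 without a filter, and ATG in hyperoxia called 2 members with quantile normalization. The causes were not tested. Leaving out 1 mouse at a time gave 1306 to 4021 genes and 0 to 1 members for strain, 20 to 3640 genes and 0 to 1 members for sex, 1400 to 3242 genes and 1 to 2 members for hyperoxia by strain, 2 to 1270 genes for hyperoxia by sex, 3 to 32 for ATG in room air, 443 to 1096 genes and 0 to 1 members for ATG in hyperoxia, and 243 to 1093 genes for ATG by air. Without C3HM 2 came the highest of each range of genes except ATG in hyperoxia. No paired analysis was possible because each replicate number belongs to 1 mouse in 1 group.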
